A study of Mus musculus with 22 samples.

Results

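The data are the expression levels of 37 macrophage marker genes in inguinal white fat, a subcutaneous fat depot of the mouse, across 2 genotypes and 2 housing temperatures. The genes were taken from a list of symbols that was chosen with earlier results of these data known. Each was measured by 1 probe set whose only gene symbol was that gene. They are 37 of the 22180 genes tested. The mice were male, 3 to 4 months old and on a C57BL/6 background. They were wild type or PPARα-null, which are mice lacking the fatty acid receptor encoded by Ppara, bred onto that background for over 10 generations. All were first kept for 5 weeks at 28 °C, which is close to thermoneutral for mice. The groups at 28 °C stayed there, and the cold groups passed 1 week at 21 °C and then 10 days at 5 °C. Each array held RNA of 1 mouse, with 6 wild-type and 6 null mice kept at 28 °C, and 5 of each genotype at 5 °C. The labels give 10 mice housed per group and do not say how the arrayed mice were picked. Levels are log2 expression values, changes are differences of log2 values at 5 °C minus 28 °C unless stated, and a gene was called at a limma p under 0.05 after Benjamini-Hochberg adjustment over all genes.

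Macrophages are phagocytes that take up dying cells, debris and lipid in almost every tissue, and their survival depends on signalling through the receptor Csf1r. In white fat many are long-lived resident cells that line vessels and carry scavenger and endocytic receptors such as Mrc1, Lyve1 and Folr2. Others come from blood monocytes, and in obese fat lipid-laden macrophages that express Trem2 and Gpnmb gather around dying adipocytes. No marker is perfectly specific. Lyve1 is also a marker of lymphatic endothelium, Cd14 and Lyz2 are shared with monocytes and neutrophils, Itgax with dendritic cells, and Ptprc, the common leukocyte antigen, with all white blood cells.

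The 22 arrays correlated at 0.966 to 0.990 with each other. Ucp1, the uncoupling protein of thermogenic fat, ranged from 4.50 to 6.47 over all mice at 28 °C and from 12.25 to 12.58 over all mice at 5 °C, so every cold mouse stood apart by this gene. The Ppara probe set ranged from 4.42 to 5.00 in wild-type and 4.14 to 5.45 in null mice at 28 °C, and from 6.13 to 6.98 and 5.77 to 7.10 at 5 °C. The labels do not say whether its probes fall inside the deleted stretch, and it checks no genotype label. Signal strength bears on precision, and 34 of the 37 markers had a mean over all arrays above that of the median gene (4.67). The 3 dimmer ones were Trem2, Itgax and Clec4n. The number of arrays limits the precision.

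Most macrophage markers were lower in the cold, in both genotypes. In wild-type mice 29 of the 37 fell and 0 rose, where 8.30% of all genes fell and 8.35% rose. In null mice 26 of the 37 fell and 0 rose, where 6.33% of all genes fell and 6.88% rose. The calls shared 25 genes, so 25 of 29 and 25 of 26 were lower in both genotypes. The markers had a median change of −0.61 (wild type) and −0.56 (null), against 0.01 and −0.0034 over all genes. Over the 37 markers the changes ran from −0.94 to 0.21 and from −0.91 to −0.09. Of the 37, 26 had every cold wild-type mouse below every wild-type mouse at 28 °C (5.53% of all genes), and 20 had this order in null mice (4.06% of all genes).

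The mean of all 37 levels in a mouse showed the same separation. It was 7.50 ± 0.14 (SD, n = 6) at 28 °C and 6.94 ± 0.12 (n = 5) at 5 °C in wild-type mice, and 7.49 ± 0.11 (n = 6) and 6.96 ± 0.15 (n = 5) in null mice. The mice at 28 °C ranged from 7.37 to 7.74 and 7.39 to 7.66, and the cold mice from 6.85 to 7.15 and 6.83 to 7.18, so temperature groups did not overlap in either genotype. The levels come from a whole fat pad and are relative within an array. Fewer macrophages, less of these transcripts per macrophage and more RNA from other cells cannot be told apart.

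**Figure D1:**
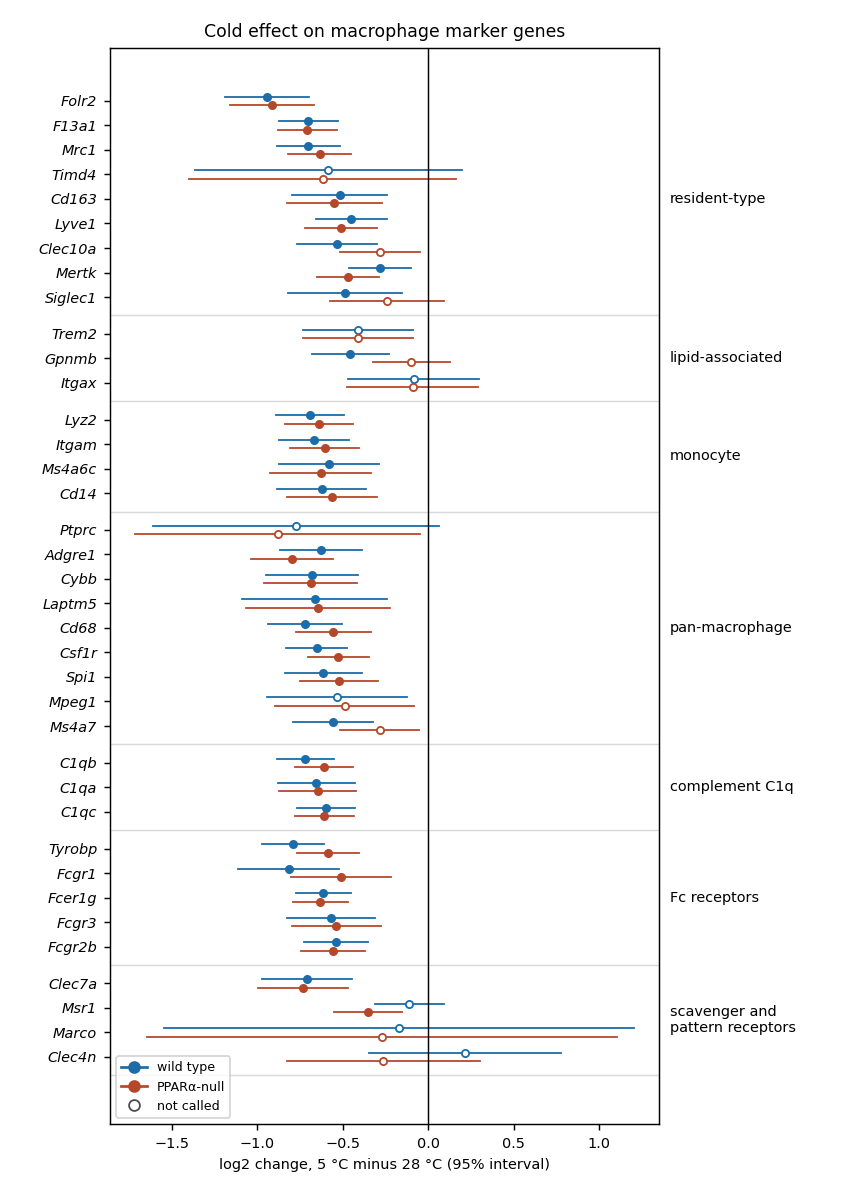
Change of each of the 37 macrophage markers in the cold (log2, 5 °C minus 28 °C) with its 95% interval, in wild-type and PPARα-null mice, grouped by class. Filled points passed the test; 29 wild-type and 26 null changes did, all of them below 0.

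Promoter sequences were looked up for the markers, of which 1, Spi1, encodes PU.1, a factor that binds purine-rich sites at many myeloid genes. A RefSeq promoter on GRCm38.p6 was found for 26 of the 37. The letters GAGGAA, a form of the PU.1 site, were searched on either strand in the 250 bases before the start. They occurred in 13 of these 26 and in 6252 of 27025 promoters of the same length (23.1%). The 26 held 16 matches, and matches were found in 2 of 6 resident-type, 1 of 3 monocyte, 1 of 3 lipid-associated, 3 of 6 identity, 2 of 4 Fc receptor, 2 of 2 C1q and 2 of 2 scavenger genes. A match describes letters and is not a measured binding site, and other forms of the site were not searched. The markers were chosen as macrophage genes and set beside all promoters, and a part of PU.1 in the fall was not tested. The 250 bases are shown for 4 genes, 5′ to 3′ towards the start, with GAGGAA or its reverse complement in capitals: Mrc1 with 3 matches, C1qb with 1, Itgam with 2, and Folr2, which had the largest called fall and no match.
Mrc1, chr2:14229164-14229413, plus strand: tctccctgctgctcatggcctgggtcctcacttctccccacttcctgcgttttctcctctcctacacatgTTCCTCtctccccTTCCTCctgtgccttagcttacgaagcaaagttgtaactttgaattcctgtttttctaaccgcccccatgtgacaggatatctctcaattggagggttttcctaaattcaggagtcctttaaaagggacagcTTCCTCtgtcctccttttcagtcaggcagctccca
C1qb, chr4:136886201-136886450, minus strand: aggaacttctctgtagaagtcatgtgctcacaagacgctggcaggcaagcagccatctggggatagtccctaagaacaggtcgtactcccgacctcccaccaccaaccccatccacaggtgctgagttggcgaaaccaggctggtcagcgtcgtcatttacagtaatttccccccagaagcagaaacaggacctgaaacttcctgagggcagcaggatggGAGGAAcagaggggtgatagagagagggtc
Itgam, chr7:128062390-128062639, plus strand: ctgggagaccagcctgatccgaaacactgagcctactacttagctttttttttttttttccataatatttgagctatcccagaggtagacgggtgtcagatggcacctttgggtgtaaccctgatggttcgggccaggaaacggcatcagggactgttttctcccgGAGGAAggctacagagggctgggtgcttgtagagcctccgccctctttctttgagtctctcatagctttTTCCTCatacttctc
Folr2, chr7:101857191-101857440, minus strand: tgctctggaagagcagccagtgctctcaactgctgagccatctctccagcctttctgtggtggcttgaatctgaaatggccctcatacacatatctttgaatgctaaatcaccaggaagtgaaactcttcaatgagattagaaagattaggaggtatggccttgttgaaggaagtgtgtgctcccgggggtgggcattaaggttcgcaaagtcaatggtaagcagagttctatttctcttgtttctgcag
In Mrc1 the matches began 180, 167 and 35 bases before the start, in Itgam 84 and 15, and in C1qb 30. All 4 genes fell in both genotypes, Folr2 by the most.

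Of the 9 resident-type markers, 8 fell in wild-type and 6 in null mice. Folr2, a folate receptor of perivascular macrophages, had the largest called change of all 37 in both genotypes. Its level in wild-type mice ran from 10.15 to 10.41 (median 10.23) at 28 °C and read 8.86, 9.08, 9.44, 9.50 and 9.68 at 5 °C. Null mice ran from 9.91 to 10.33 (median 10.23) at 28 °C and read 9.09, 9.23, 9.24, 9.28 and 9.35 at 5 °C. All cold mice lay below all mice at 28 °C. Folr2 fell by 0.94 (SE 0.12 and adjusted p = 5.38e-06) in wild-type and by 0.91 (SE 0.12 and adjusted p = 9.56e-06) in null mice, or 1.92-fold and 1.89-fold.

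Mrc1, the mannose receptor CD206, behaved alike. At 28 °C wild-type mice spanned 9.57 to 9.84 (median 9.64), and those at 5 °C measured 8.78, 8.88, 9.01, 9.04 and 9.16. The null mice spanned 9.29 to 9.83 (median 9.59) at 28 °C and measured 8.83, 8.87, 8.95, 8.97 and 9.06 in the cold. Its groups did not overlap. Mrc1 fell by 0.70 (SE 0.09 and adjusted p = 6.06e-06) and by 0.63 (SE 0.09 and adjusted p = 2.52e-05). F13a1, the A subunit of coagulation factor XIII, fell by 0.70 and 0.71 in wild-type and null mice. Cd163, the haemoglobin scavenger receptor, fell by 0.52 and 0.55, and the hyaluronan receptor Lyve1 by 0.45 and 0.51. Mertk, a receptor kinase for the uptake of apoptotic cells, fell by 0.47 (SE 0.09 and adjusted p = 0.000636) in null mice and by 0.28 (SE 0.09 and adjusted p = 0.0295) in wild-type mice.

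The remaining resident-type markers were less even. The lectin Clec10a fell by 0.53 (SE 0.11 and adjusted p = 0.00166) in wild-type mice and was −0.28 (SE 0.11 and adjusted p = 0.109) in null mice. Siglec1, the sialoadhesin of lymph node and tissue macrophages, fell by 0.49 (SE 0.16 and adjusted p = 0.0402) in wild-type mice and was −0.24 (SE 0.16 and adjusted p = 0.401) in null mice. Timd4, a phosphatidylserine receptor of long-lived resident macrophages, passed in neither genotype, at −0.58 (SE 0.37 and adjusted p = 0.336) and −0.62 (SE 0.37 and adjusted p = 0.345). With 1 array left out Timd4 ran from −0.75 to −0.33 (without wild-type 5 °C replicate 1 and 28 °C replicate 3) and from −0.84 to −0.39 (without null 5 °C replicate 3 and replicate 5). With the mean level of 18 B, T and NK cell genes as a covariate it was −0.27 (SE 0.13 and adjusted p = 0.2) and −0.20 (SE 0.14 and adjusted p = 0.404). Some calls of this class were narrow. The wild-type Mertk call was lost without any 1 of the arrays wild-type 5 °C replicate 1, 2 or 5, or wild-type 28 °C replicate 1, 2 or 4 (−0.27 to −0.23, adjusted p = 0.0526 to 0.0758). The Siglec1 call was lost without any 1 of the arrays wild-type 5 °C replicate 3, 4 or 5, or wild-type 28 °C replicate 1, 2, 3 or 4 (−0.50 to −0.41, adjusted p = 0.0562 to 0.105).

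**Figure D2:**
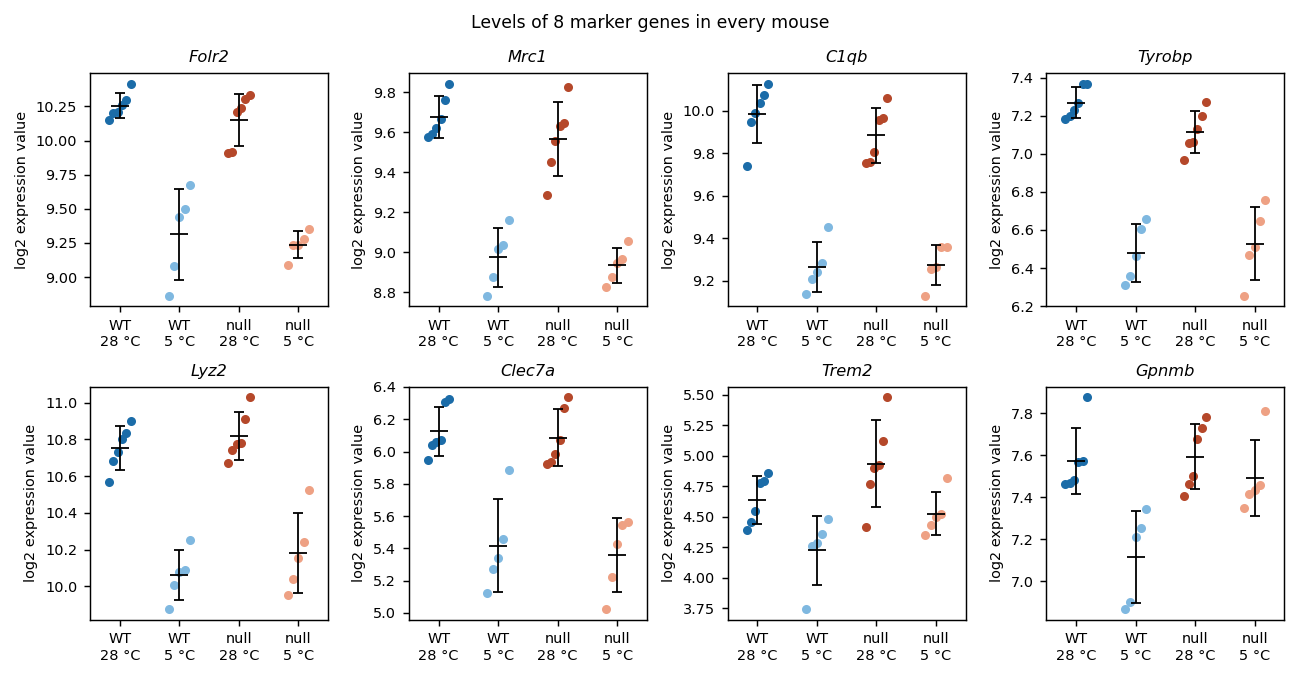
Log2 levels of 8 marker genes in every mouse, by genotype and temperature, with the mean and SD of each group (n = 6 at 28 °C, n = 5 at 5 °C). Folr2, Mrc1, C1qb, Tyrobp, Lyz2 and Clec7a have every cold mouse below every mouse at 28 °C in both genotypes, while Trem2 overlaps and Gpnmb is separated in wild-type mice and overlaps in null mice.

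All 3 chains of complement C1q, the recognition molecule of the classical complement pathway, which in most tissues is made by macrophages, fell in both genotypes by similar amounts. C1qb ranged from 9.74 to 10.13 (median 10.01) in the wild-type 28 °C group and was 9.14, 9.21, 9.24, 9.28 and 9.45 in the wild-type cold group. For the null genotype it ranged from 9.75 to 10.06 (median 9.88) and stood in the cold at 9.13, 9.26, 9.26, 9.36 and 9.36. No cold mouse reached the range of its 28 °C group. C1qb fell by 0.72 (SE 0.08 and adjusted p = 1.22e-06) in wild-type and by 0.61 (SE 0.08 and adjusted p = 1.3e-05) in null mice. C1qa fell by 0.65 and 0.65, and C1qc by 0.60 and 0.61. The temperature groups of these genes did not overlap either.

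Of the 9 markers of macrophage or leukocyte identity, 7 fell in wild-type and 6 in null mice. Adgre1, the F4/80 antigen, had the largest called change of this class in null mice. Wild-type values went from 7.19 to 7.41 (median 7.29) at 28 °C, against 6.34, 6.42, 6.79, 6.79 and 6.98 in the cold. Null values went from 6.93 to 7.39 (median 7.26) at 28 °C, against 6.09, 6.36, 6.44, 6.47 and 6.64 in the cold. Each cold group lay wholly below its 28 °C group. Adgre1 fell by 0.63 (SE 0.12 and adjusted p = 0.000468) and by 0.80 (SE 0.12 and adjusted p = 4.17e-05).

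Cd68, a lysosomal membrane protein of phagocytes, had the largest called change of this class in wild-type mice. Its level in wild-type mice ran from 8.54 to 9.03 (median 8.78) at 28 °C and read 7.90, 7.96, 8.11, 8.20 and 8.21 at 5 °C. Null mice ran from 8.53 to 9.12 (median 8.78) at 28 °C and read 8.21, 8.22, 8.23, 8.27 and 8.37 at 5 °C. Again no cold mouse overlapped its 28 °C group. Cd68 fell by 0.72 (SE 0.10 and adjusted p = 3.38e-05) and 0.56 (SE 0.10 and adjusted p = 0.000728). Csf1r, the receptor on which macrophage survival depends, fell by 0.65 and 0.53. Spi1, which encodes the myeloid transcription factor PU.1, fell by 0.61 and 0.52. Cybb, the catalytic subunit of the phagocyte oxidase, fell by 0.68 and 0.69.

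Laptm5, a lysosomal protein of leukocytes, fell by 0.67 (SE 0.20 and adjusted p = 0.026) and 0.64 (SE 0.20 and adjusted p = 0.0378). Its wild-type call was lost without any 1 of the arrays wild-type 5 °C replicate 2 or 5, or wild-type 28 °C replicate 2 or 3 (−0.66 to −0.55, adjusted p = 0.0516 to 0.0697). Its null call was lost without any 1 of the arrays null 5 °C replicate 1, 2 or 5, or null 28 °C replicate 1 or 2 (−0.60 to −0.48, adjusted p = 0.0835 to 0.105). Ms4a7, a membrane protein of tissue macrophages, fell by 0.56 (SE 0.11 and adjusted p = 0.00106) in wild-type mice and was −0.28 (SE 0.11 and adjusted p = 0.106) in null mice. Mpeg1, a pore-forming protein of phagocytes, was −0.53 (SE 0.20 and adjusted p = 0.068) and −0.49 (SE 0.20 and adjusted p = 0.115), and fell in the average over the genotypes by 0.51 (SE 0.14 and adjusted p = 0.00832). In that average 33 of the 37 markers fell, where 13.1% of all genes did. The other 4 were Clec4n, Itgax, Marco and Timd4.

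The Fc receptors, which bind antibody, and their signalling adaptors fell without exception, 5 of 5 in each genotype. Tyrobp, the adaptor DAP12 that also carries the signal of Trem2, had non-overlapping groups. At 28 °C wild-type mice spanned 7.19 to 7.37 (median 7.25), and those at 5 °C measured 6.31, 6.36, 6.46, 6.61 and 6.66. The null mice spanned 6.97 to 7.27 (median 7.10) at 28 °C and measured 6.25, 6.47, 6.51, 6.65 and 6.76 in the cold. It fell by 0.79 (SE 0.09 and adjusted p = 1e-06) in wild-type and by 0.59 (SE 0.09 and adjusted p = 5.28e-05) in null mice. Fcgr1, the high-affinity IgG receptor, fell by 0.82 (SE 0.14 and adjusted p = 0.000238) in wild-type mice. Its level there ran from 6.33 to 6.81 (median 6.55) at 28 °C and was 5.32, 5.53, 5.57, 6.16 and 6.21 in the cold. In null mice it ran from 6.17 to 6.51 (median 6.29) and was 5.57, 5.71, 5.78, 5.94 and 6.06, a fall of 0.51 (SE 0.14 and adjusted p = 0.0173) that missed the threshold without the null 5 °C replicate 2 array (−0.45, adjusted p = 0.0543). Fcer1g, the common Fc receptor gamma chain, fell by 0.61 and 0.63. The inhibitory receptor Fcgr2b fell by 0.54 and 0.56, and the activating receptor Fcgr3 by 0.57 and 0.54. Fcgr2b and Fcgr3 are near copies in their outer domains, and Lyz2 and Ms4a6c also have close relatives, so a probe set may take signal from more than 1 of them, which was not tested.

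All 4 monocyte markers fell in both genotypes. Lyz2, the lysozyme of myeloid cells, had the largest called change of the class. Lyz2 ranged from 10.57 to 10.90 (median 10.76) in the wild-type 28 °C group and was 9.88, 10.01, 10.08, 10.09 and 10.25 in the wild-type cold group. For the null genotype it ranged from 10.67 to 11.03 (median 10.78) and stood in the cold at 9.95, 10.04, 10.15, 10.24 and 10.52. The temperature groups were separate in each genotype. Lyz2 fell by 0.69 (SE 0.10 and adjusted p = 1.91e-05) and by 0.64 (SE 0.10 and adjusted p = 6.12e-05). Itgam, the integrin CD11b, fell by 0.67 and 0.61, the endotoxin co-receptor Cd14 by 0.62 and 0.56, and Ms4a6c, a membrane protein of the MS4A family, by 0.58 and 0.63.

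The lipid-associated markers were few and mixed. Gpnmb, a glycoprotein of lipid-laden macrophages, was the 1 of 3 that fell in wild-type mice, and limma called 0 of 3 in null mice, with 1 at an unadjusted p under 0.05. Wild-type values went from 7.46 to 7.88 (median 7.53) at 28 °C, against 6.87, 6.90, 7.21, 7.25 and 7.35 in the cold. Null values went from 7.41 to 7.78 (median 7.59) at 28 °C, against 7.35, 7.42, 7.43, 7.46 and 7.81 in the cold. All cold wild-type mice lay below the wild-type mice at 28 °C, while in null mice the groups overlapped. The wild-type fall was 0.46 (SE 0.11 and adjusted p = 0.00449), and the change in null mice was −0.10 (SE 0.11 and adjusted p = 0.65). Levels of Trem2, a lipid-sensing receptor, were low. Its level in wild-type mice ran from 4.39 to 4.86 (median 4.66) at 28 °C and read 3.74, 4.26, 4.28, 4.36 and 4.49 at 5 °C. Null mice ran from 4.41 to 5.48 (median 4.92) at 28 °C and read 4.35, 4.43, 4.50, 4.53 and 4.82 at 5 °C. Here the groups overlapped in both genotypes, at −0.41 (SE 0.15 and adjusted p = 0.0741) and −0.41 (SE 0.15 and adjusted p = 0.0874). In the average over the genotypes Trem2 fell by 0.41 (SE 0.11 and adjusted p = 0.00697). Itgax, the integrin CD11c, was −0.09 (SE 0.18 and adjusted p = 0.817) and −0.09 (SE 0.18 and adjusted p = 0.833), and its sign turned when some single arrays were left out.

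The 3 classes named for origin or state were set side by side. The median change of the resident-type markers in wild-type and null mice was −0.53 and −0.55, that of the monocyte markers −0.65 and −0.62, and that of the lipid-associated markers −0.41 and −0.10. The null lipid-associated median ran from −0.19 (without null 28 °C replicate 3) to −0.063 (without null 5 °C replicate 4) when 1 array was left out, and was −0.18 without null 5 °C replicate 3 or 5. With Msr1 and Clec7a counted as lipid-associated, it was −0.35. Per mouse, the resident-type mean minus the monocyte mean was 0.66 ± 0.06 at 28 °C and 0.73 ± 0.08 at 5 °C in wild-type mice, and 0.65 ± 0.14 and 0.71 ± 0.05 in null mice (SD, n = 6 and 5). These means differed by 0.06 between temperatures in each genotype, and the groups overlapped. The resident-type mean minus the lipid-associated mean was 2.77 ± 0.04 and 2.51 ± 0.22 in wild-type mice and 2.64 ± 0.22 and 2.29 ± 0.17 in null mice. It was lower in the cold by 0.26 and 0.35, again with overlapping groups. The lipid-associated class rests on 3 genes, of which Trem2 and Itgax are dim.

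**Figure D3:**
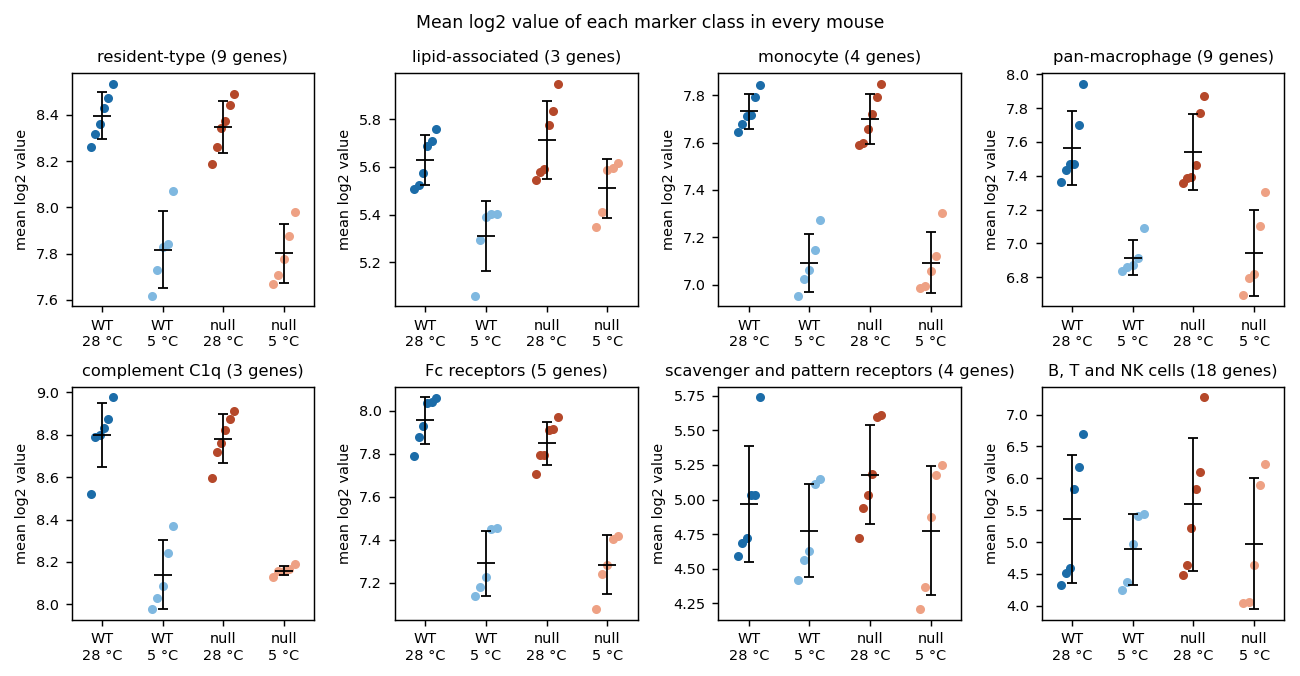
Mean log2 level of each marker class in every mouse, by genotype and temperature, with the group mean and SD (n = 6 at 28 °C, n = 5 at 5 °C). The resident-type, monocyte, identity, C1q and Fc receptor classes have all cold mice below all mice at 28 °C in both genotypes, and the lipid-associated class in wild-type mice.

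Further genes of these 3 states, outside the 37, were read from longer lists. Of 14 other resident-type genes, 11 fell in each genotype. Examples were the growth arrest protein Gas6, a ligand of Mertk (−0.85 and −0.87 in wild-type and null mice), the Fc receptor-like protein Fcrls (−0.82 and −0.92) and the carbonyl reductase Cbr2 (−0.59 and −0.69). Of 14 other monocyte genes, 8 fell in each genotype. They included the peptidase Ace (−0.99 and −0.97), the interferon-induced Ifitm3 (−0.54 and −0.48) and fibronectin Fn1 (−0.94 and −0.87), which fibroblasts also make. Other lipid-associated genes were mixed, with 3 of 11 falling and 2 rising in each genotype. The fatty acid carrier Fabp5 rose by 1.33 and 1.23 and the lysosomal lipase Lipa by 0.40 and 0.34, while the tetraspanin Cd63 fell by 0.43 and 0.43. All 3 are also expressed by adipocytes. The cell source of the signal was not tested for these or for the other genes named here.

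Of the scavenger and pattern receptors, 1 of 4 fell in wild-type and 2 of 4 in null mice. Clec7a, the beta-glucan receptor Dectin-1, had separate temperature groups. At 28 °C wild-type mice spanned 5.95 to 6.32 (median 6.06), and those at 5 °C measured 5.13, 5.28, 5.34, 5.46 and 5.89. The null mice spanned 5.92 to 6.34 (median 6.03) at 28 °C and measured 5.02, 5.23, 5.43, 5.54 and 5.56 in the cold. It fell by 0.71 (SE 0.13 and adjusted p = 0.000338) and by 0.73 (SE 0.13 and adjusted p = 0.000299). Msr1, a class A scavenger receptor for modified lipoproteins, was −0.11 (SE 0.10 and adjusted p = 0.505) in wild-type mice and fell by 0.35 (SE 0.10 and adjusted p = 0.0162) in null mice. That call was lost without any 1 of the arrays null 5 °C replicate 1 or 5 (−0.29 to −0.27, adjusted p = 0.0616 to 0.0624). Clec4n, the lectin Dectin-2, was 0.21 (SE 0.27 and adjusted p = 0.672) and −0.26 (SE 0.27 and adjusted p = 0.628).

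Marco, a scavenger receptor of lymph node and splenic macrophages, varied more between mice of a group than between temperatures. Marco ranged from 3.52 to 7.08 (median 4.39) in the wild-type 28 °C group and was 3.62, 3.77, 4.45, 5.45 and 5.67 in the wild-type cold group. For the null genotype it ranged from 3.45 to 6.68 (median 5.11) and stood in the cold at 3.85, 3.99, 4.80, 6.13 and 6.25. The groups overlapped throughout, and the changes were −0.17 (SE 0.66 and adjusted p = 0.904) and −0.27 (SE 0.66 and adjusted p = 0.866). Ptprc also varied within groups, with a within-group SD of 0.71 against 1.17 for Marco. Wild-type values went from 7.57 to 9.43 (median 8.25) at 28 °C, against 7.10, 7.12, 7.56, 8.00 and 8.02 in the cold. Null values went from 7.74 to 9.63 (median 8.28) at 28 °C, against 6.83, 6.92, 7.05, 8.31 and 8.65 in the cold. Its changes of −0.77 (SE 0.40 and adjusted p = 0.215) and −0.88 (SE 0.40 and adjusted p = 0.176) were of the size of the called markers but did not pass the test, with overlapping groups.

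The inguinal pad holds a lymph node, and the arrays differed in B, T and NK cell genes. The mean level of 18 such genes, taken as a lymphocyte score, ran from 4.05 to 7.27 over the 22 arrays, from 4.33 to 6.69 and 4.48 to 7.27 for the wild-type and null groups at 28 °C and from 4.25 to 5.43 and 4.05 to 6.23 at 5 °C. The group means were 5.36, 5.59, 4.89 and 4.98 in that order, and the groups overlapped. With the 4 groups in the model, 9 of the 37 markers rose with this score (3.14% of all genes did) and 0 fell with it (0.361%). The steepest were Marco, with a slope of 1.16 log2 units per unit of score (SE 0.11), Ptprc (0.75, SE 0.04) and Timd4 (0.67, SE 0.05). The other 6 were Laptm5 (0.34), Clec4n (0.33), Mpeg1 (0.30), Siglec1 (0.21), Ms4a6c (0.18) and Cybb (0.17). The score holds no macrophage marker, but Ptprc is expressed by lymphocytes.

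**Figure D4:**
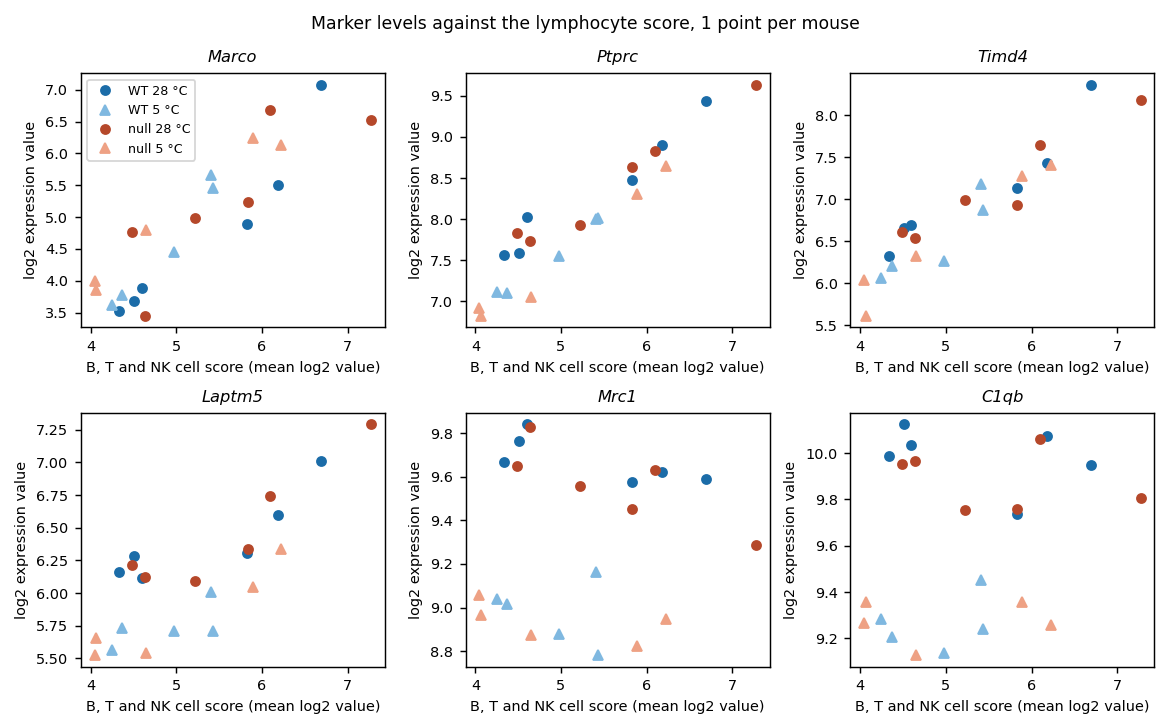
Log2 levels of 6 markers in each of the 22 mice against the mean log2 level of 18 B, T and NK cell genes on the same array. Marco, Ptprc, Timd4 and Laptm5 are higher on arrays with a higher score, while Mrc1 and C1qb separate by temperature over the scores that both temperatures cover. Cold arrays reach 5.43 (wild type) and 6.23 (null), and the highest scores belong to mice at 28 °C.

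With the lymphocyte score as a covariate, 32 of the 37 markers fell in wild-type and 28 in null mice. Ptprc then fell by 0.42 (SE 0.09 and adjusted p = 0.003) and 0.42 (SE 0.10 and adjusted p = 0.00431), and Trem2 by 0.47 (SE 0.15 and adjusted p = 0.029) and 0.49 (SE 0.15 and adjusted p = 0.0311). Marco turned to 0.38 (SE 0.27 and adjusted p = 0.402) and 0.44 (SE 0.27 and adjusted p = 0.363), neither of which passed, and the wild-type median of the scavenger class turned to 0.14. Mpeg1 fell in wild-type mice, by 0.39 (SE 0.12 and adjusted p = 0.0271). Of the 28 markers whose slope on the score was not called, 25 fell in wild-type and 23 in null mice in the fit without it, with medians of −0.62 and −0.56. Some of these 28 had slopes close to those called, such as Itgax (0.19, adjusted p = 0.146) and Spi1 (0.13, adjusted p = 0.0522), and Mrc1 had one of −0.09 (adjusted p = 0.133). Signal from skeletal muscle, which can adhere to the pad, also varied. The mean of 7 muscle genes ran from 6.13 to 10.73 with overlapping groups, and with it as a covariate 30 and 26 markers fell.

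Whether the fall depended on PPARα was asked by the difference of the cold effects, null minus wild type. It was called for 0 of the 37 markers and for 0% of the 22180 genes. At an unadjusted p under 0.05 there were 1 of 37 markers and 1137 of all genes, and limma with a trended and robust prior also called 0 markers. The 1 marker was Gpnmb, with a difference of 0.36 (95% interval 0.04 to 0.67, unadjusted p = 0.0292, adjusted p = 0.963). Gpnmb fell by 0.46 in wild-type mice and stood at −0.10 in null mice, and the difference did not pass the test. The null change was −0.18 without null 5 °C replicate 5, the cold mouse at 7.81, and −0.062 without null 28 °C replicate 3. With any 1 array left out, limma called the difference for 0 of the 37 markers. For 23 of the 37 markers the 95% interval of the difference lay within 0.5 log2 units of 0, and for 33 within 1. For Mrc1 it was −0.19 to 0.33, for C1qb −0.13 to 0.35 and for Folr2 −0.32 to 0.37. In simulated data genes drawn at random from all 22180 changed in the cold in wild-type mice alone, by −0.4, −0.6, −0.8 or −1. The resulting differences above 0 were called for 2%, 32%, 54% and 60% of the drawn genes, so differences of all these sizes could be missed among them. The drawn genes were not matched to the markers in signal or spread, so these are not rates for the markers.

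The genotypes were also compared within each temperature, null minus wild type. At 28 °C 0 of the 37 markers were called (0.194% of all genes in either direction), with Ms4a7, Clec10a and Mertk at an unadjusted p under 0.05. At 5 °C 0 were called (0.149% of all genes), with Gpnmb, Adgre1 and Msr1 at an unadjusted p under 0.05. These percentages are of adjusted calls. The share of all genes at an unadjusted p under 0.05 is not given, so the genes named at it are not read as genotype differences. limma with a trended and robust prior called 0 at both temperatures. The median difference over the markers was −0.0037 at 28 °C and 0.0021 at 5 °C. Gpnmb was 0.38 (SE 0.11 and adjusted p = 0.36) at 5 °C. Every null mouse lay above every wild-type mouse there, an order seen in 0.568% of all genes. The gap was narrow, with the lowest null mouse at 7.348 and the highest wild-type mouse at 7.346.

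Genes that feed, recruit or polarise macrophages were read next. Of 13 growth and recruitment factors, 5 fell in wild-type and 7 in null mice, while 0 rose. Csf1, the ligand of Csf1r, fell by 0.73 (SE 0.08 and adjusted p = 6.84e-07) and 0.58 (SE 0.08 and adjusted p = 1.66e-05). The alarmin Il33 fell by 1.11 and 0.85, and the eosinophil chemokine Ccl11 by 0.53 and 0.39. Of 11 genes of alternative activation, the state induced by interleukin 4, 1 fell in wild-type and 2 in null mice. Over all genes 8.30% fell in wild-type and 6.33% in null mice. The counts of this list and of the inflammatory list were not tested against these shares. Retnla, a secreted protein of alternatively activated macrophages, fell by 0.86 (SE 0.10 and adjusted p = 1.53e-06) and 0.89 (SE 0.10 and adjusted p = 1.27e-06). Irf4, an interleukin 4 responsive transcription factor, was −0.24 (SE 0.12 and adjusted p = 0.215) in wild-type mice and fell by 0.42 in null mice, and the receptor chain Il4ra was −0.35 and −0.27 without a call. Of 14 inflammatory genes, 1 fell and 1 rose in wild-type mice and 2 fell in null mice. Il18, a cytokine released by inflammasomes, fell by 0.75 and 0.77. The acute-phase gene Saa3 was −0.31 without a call in wild-type mice and fell by 1.24 in null mice, and Ptgs2 was −0.36 and −0.49 without a call. Of 6 genes for the synthesis, uptake or breakdown of noradrenaline, limma called 0 in either genotype, with 2 and 0 at an unadjusted p under 0.05.

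Markers of other cells in the pad gave the setting of these changes. All 9 fibroblast and preadipocyte genes fell in both genotypes, with medians of −0.62 and −0.48, close to those of the macrophage markers. The collagens Col1a1 and Col3a1 fell by 0.84 and 0.70 in wild-type and by 1.06 and 0.74 in null mice, and Pi16, a marker of vessel-associated fibroblasts, by 1.00 and 0.88. The fibroblast mean ranged from 10.03 to 10.28 and 9.96 to 10.18 at 28 °C and from 9.37 to 9.58 and 9.46 to 9.51 at 5 °C, and its part in the macrophage result was not tested. Blood endothelium had a median of 0.01 and −0.07, with 1 of 7 genes falling in each genotype and 1 rising in wild-type mice. Of 5 lymphatic genes other than Lyve1, 3 fell in wild-type and 1 in null mice. Prox1, the lymphatic transcription factor, fell by 0.86 (SE 0.25 and adjusted p = 0.018) in wild-type mice and was 0.09 (SE 0.25 and adjusted p = 0.883) in null mice. limma called 0 of 9 dendritic cell genes in either genotype (3 and 1 at an unadjusted p under 0.05) and 0 of 7 B cell genes (0 and 0). The absence of calls does not show steady levels. Cold minus 28 °C, the B cell mean differed by −0.58 (wild type) and −0.79 (null), and the dendritic cell mean by −0.29 and −0.31. The mean of the 37 markers differed by −0.56 and −0.53. The B cell groups overlapped, with SDs from 0.91 to 1.55, so these tests had little precision. Neutrophil genes fell in 2 of 11 in both. Of the mast cell genes, 4 of 7 fell in wild-type mice and 0 of 7 in null mice by limma (0 at an unadjusted p under 0.05). These genotype differences did not pass the test of the difference itself. T and NK cell genes fell in 0 of 11 in wild-type mice (0 at an unadjusted p under 0.05) and in 1 of 11 in null mice. Their mean differed between temperatures by −0.40 (wild type) and −0.50 (null), with overlapping groups. Of the adipocyte genes 1 and 2 of 7 fell, including Adipoq (−0.36 and −0.27). All 7 brown and beige adipocyte genes rose in both genotypes, and limma called 0 of 7 muscle genes in either (0 at an unadjusted p under 0.05).

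**Figure D5:**
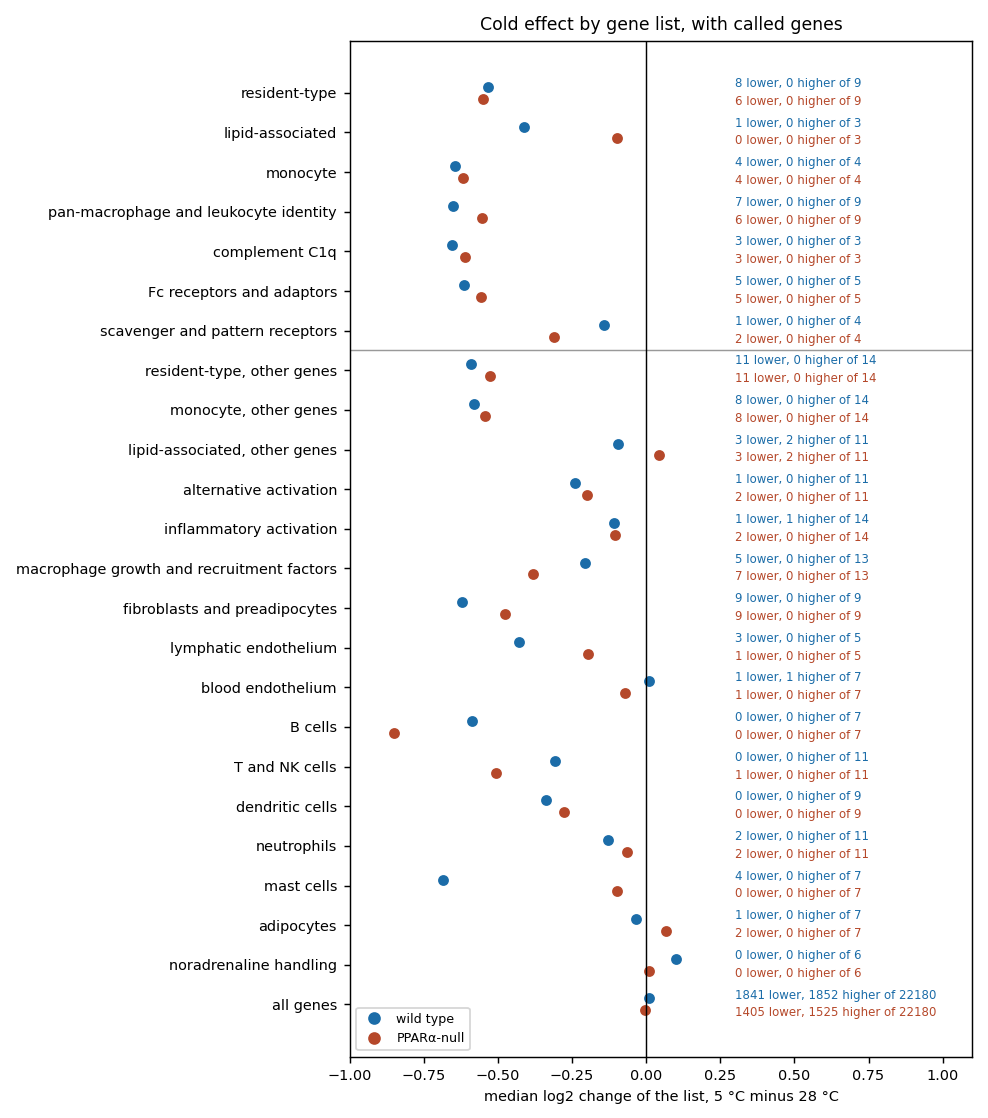
Median log2 change in the cold of each marker class and of each other gene list, in wild-type and PPARα-null mice, with the number of genes called lower and higher beside each pair. Skeletal muscle and brown and beige adipocyte lists are left out of the plot. The fibroblast list lies beside the macrophage classes, with 9 of 9 genes lower in both genotypes.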

How the data were processed

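The values analysed are the authors' deposited log2 expression values of 41345 probe sets on 22 whole-transcript Affymetrix arrays, made with RMA per the submitters' processing notes, whose version those notes leave out. RMA includes quantile normalization, so levels are relative within an array. Each array took 100 ng of RNA of integrity number over 8, per the labels' protocols. Probe sets with 1 gene symbol (23521) were kept, and the brightest stood for each gene, leaving 22180 genes. The 37 markers, their classes and the 18 other gene lists (170 of 180 genes measured) were chosen with earlier results of these data known.

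The 4 groups were fitted together with limma (3.58.1, R 4.3.3), and p-values were adjusted by the Benjamini-Hochberg method over all genes. Errors of changes are standard errors of the fit. Named genes are all markers, Ppara, Ucp1 and, per other list, up to 3 genes with the smallest unadjusted p in the average cold effect. Values by array are given for the largest called changes of each class, and for other markers chosen after their values were seen. Class means and medians were not tested. The labels number the replicates and state no pairing of mice, so none was fitted except in the replicate block below. Residuals of same-numbered arrays correlated at a median of −0.04 (6 of 31 pairs over 0.1). Those of arrays with different numbers correlated at a median of 0.0026 (36 of 150 pairs over 0.1). Tested on simulated data, effects of cold in wild-type mice were called for 24%, 62%, 74% and 84% of genes changed by −0.4, −0.6, −0.8 and −1 (50 of each size among 22180). Alternatives were array medians subtracted, renewed quantile normalization, filters on dim genes, averaging all probe sets of a gene, a trended and robust prior, array weights, only the groups compared, a replicate block, a lymphocyte score as covariate, wider classes and each array left out. Each marker had 1 probe set, so averaging probe sets could not change its values. A muscle covariate and leaving out the array with the highest lymphocyte score in each group were added after seeing the data. Software included pandas (2.3.3) and matplotlib (3.10.9).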

Additional observations from a re-analysis of the deposited data

Results flagged for a closer look

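In 4 of 180 tests of a group for 1 mouse apart from the rest, the highest or lowest mouse stood apart by Dixon's criterion at 95%, and chance gives about 1 in 20. The 180 tests covered the 37 markers and 8 mean levels in 4 groups. In wild-type mice at 28 °C, replicate 3 had a Cybb level of 8.76, with the next mouse at 8.28, and replicate 1 had a Gpnmb level of 7.88, with the next at 7.57. In null mice at 5 °C, replicate 4 had a C1qa level of 8.04, below the next mouse at 8.20, and replicate 5 had a Gpnmb level of 7.81, above the next at 7.46. Cybb is among the markers that rose with the lymphocyte score, and wild-type replicate 3 at 28 °C had the highest score of its group. Whether the score accounts for that Cybb level was not tested.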

How the results depend on the processing

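Across the alternatives other than leaving out 1 array, 27 to 32 markers fell in wild-type mice, 24 to 28 in null mice and 32 or 33 in the average, and 0 were called in the difference or between genotypes. The share of all genes called under each alternative is not given beside these counts. With array medians subtracted 27 fell in wild-type mice, without Mertk and Siglec1. With only the groups compared 28 and 24 fell, without Mertk in wild-type and without Laptm5 and Msr1 in null mice. The replicate block gave 29, 26 and 33, and changed no call of a marker. Leaving out 1 array gave 26 to 30 in wild-type mice, 24 to 27 in null mice and 32 or 33 in the average. The lipid-associated median in null mice was −0.35 with wider classes. The wild-type median of the scavenger class turned to 0.14 with the lymphocyte covariate, and ran from −0.28 to 0.10 when 1 array was left out, above 0 without wild-type 28 °C replicate 3. Uncalled changes that turned sign with the lymphocyte covariate were Itgax (0.0038 in wild-type, 0.027 in null mice) and Marco (0.38 and 0.44). Without the array with the highest lymphocyte score in each group, an alternative chosen after seeing the data, Itgax was 0.037 and Marco 0.078 in wild-type mice. There the wild-type calls of Siglec1 (−0.36, adjusted p = 0.125) and Mertk (−0.27, adjusted p = 0.102) were lost, and Clec10a (−0.41, adjusted p = 0.0259) and Trem2 (−0.49, adjusted p = 0.0211) were called in null mice. With 1 array left out Marco ran from −0.44 to 0.29 in wild-type and from −0.63 to 0.017 in null mice, and Itgax from −0.17 to 0.033 and from −0.19 to 0.040. Marco was above 0 without wild-type 5 °C replicate 2 or 3, wild-type 28 °C replicate 3, null 5 °C replicate 5 or null 28 °C replicate 2, and Itgax without wild-type 28 °C replicate 3 or null 28 °C replicate 4. The cause of these changes was not tested. Arrays of 5 or 6 mice a group and low signal for Trem2, Itgax and Clec4n limit what can be seen.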
